A study of Mus musculus with 4 samples.

Results

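The genes described here are 10 that build or anchor the hyaluronan matrix of the brain: the lecticans Ncan, Bcan, Vcan and Acan, the link proteins Hapln1, Hapln2 and Hapln4, the tenascins Tnr and Tnc, and the receptor phosphatase Ptprz1. They were chosen by symbol, with earlier results of these data known, from the 55471 Ensembl genes in each table, and all 10 were found. RNA bound to pulled-down, HA-tagged ribosomes was sequenced from 2 cuprizone and 2 mock libraries of mouse brain. Cuprizone is a copper chelator that kills oligodendrocytes and strips myelin, and the controls in the design text, here taken as the libraries labelled mock, ate normal chow. The labels give the cell type as astrocytes. All 4 libraries, mock included, came from mice with the genotype GFAP-Cre+/- Rpl22HA/wt, so Cre, driven by the GFAP promoter, turns on a tag carried by 1 of the 2 Rpl22 alleles. The design text of the series gives male mice aged 8 to 9 weeks, 0.2% cuprizone by weight in the chow for 5 weeks, and dissection of the corpus callosum. It names collection at 5, 5.5 and 7 weeks, whereas the sample labels put every library at 3 weeks and in batch 1. The labelled time is used here. The labels call the libraries biological replicates without saying how many mice went into each, so every p-value measures the spread between these libraries.

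Lecticans are chondroitin sulfate proteoglycans that carry a hyaluronan-binding domain at one end and a domain that binds tenascins at the other. Link proteins lock a lectican onto its hyaluronan chain, and tenascin-R crosslinks lecticans to each other, which yields the dense nets around some neurons and the matrix at nodes of Ranvier. Ptprz1 is a transmembrane phosphatase of astrocytes and oligodendrocyte precursors whose secreted form, phosphacan, is itself a chondroitin sulfate proteoglycan. In scars and demyelinated lesions this family is known as a barrier to axon growth and to oligodendrocyte precursors.

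Library totals ran from 21209517 to 23822620 counts. Levels are CPM, a gene's count scaled to the library total, and 3 counts correspond to 0.126 to 0.141 CPM. Astrocyte markers were present in every library: 12 genes summed to 5634 and 6181 CPM in cuprizone libraries, against 9338 and 8952 CPM in mock libraries. Neuron markers (10 genes, led by Snap25, Syt1 and Stmn2) summed to 14362 and 14431 CPM in cuprizone libraries and 12405 and 12829 CPM in mock libraries, above the astrocyte markers in every library. Snap25 alone held 9900 and 10008 CPM in cuprizone libraries and 8292 and 8297 CPM in mock libraries. Of the 10 genes 5 were higher in both cuprizone libraries, beside 25.7% of all tested genes. Another 2 were lower in both (Syt1 and Slc17a7), beside 18.9%. Mature oligodendrocyte markers (10 genes) summed to 10065 and 13337 CPM in cuprizone libraries, against 12764 and 14820 CPM in mock libraries. Precursor markers (10 genes) summed to 399.8 and 586 CPM in cuprizone libraries, against 386 and 559 CPM in mock libraries. Most of that sum was Olig1, at 236.5 and 404 CPM in cuprizone libraries and 224 and 378 CPM in mock libraries, so it says little of the other markers. Endothelial markers stayed at or under 8.65 CPM in each library and fibroblast markers at or under 28.1 CPM, with Cdh5 and Col3a1 at 0 counts in all 4. Microglia markers (8 genes) summed to 20.1 and 17.3 CPM in cuprizone libraries and 26.9 and 38.7 CPM in mock libraries, with Cx3cr1 and Aif1 at 0 counts in both cuprizone libraries. Rpl22, which carries the tag, stood at 42.2 and 27.5 CPM in cuprizone libraries and 40.6 and 40.1 CPM in mock libraries. Fewer cells of a type and less RNA per cell cannot be told apart in such bulk libraries.

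The 3 lecticans that could be tested and Ptprz1 had lower values in both cuprizone libraries than in both mock libraries. They stood at 0.394 to 0.432 times the mock mean. The link proteins overlapped between the groups in CPM on library totals, though Hapln1 did not when scaled as in the edgeR test (TMM). EdgeR's quasi-likelihood test called 0 of the 9 tested members at an adjusted p under 0.05, a rule that 0.0822% of all 15816 tested genes met. At an unadjusted p under 0.05, 4 members were lower (Ncan, Bcan, Ptprz1 and Tnr), beside 7.04% of all tested genes, and 0 were higher, beside 5.73%. DESeq2 called 3 members (Ncan, Bcan and Ptprz1), and 720 of all 15816 tested genes. Limma-voom called 0 members, and 47 of all tested genes. In 5 of the 9 both cuprizone libraries lay below both mock libraries, against 18.9% of tested genes, and in 0 both lay above, against 25.7%. Folds were negative for 7 of the 9, against 49.9% of tested genes, and the median log2 fold was -1.17, against 0.00 over all tested genes.

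**Figure D1:**
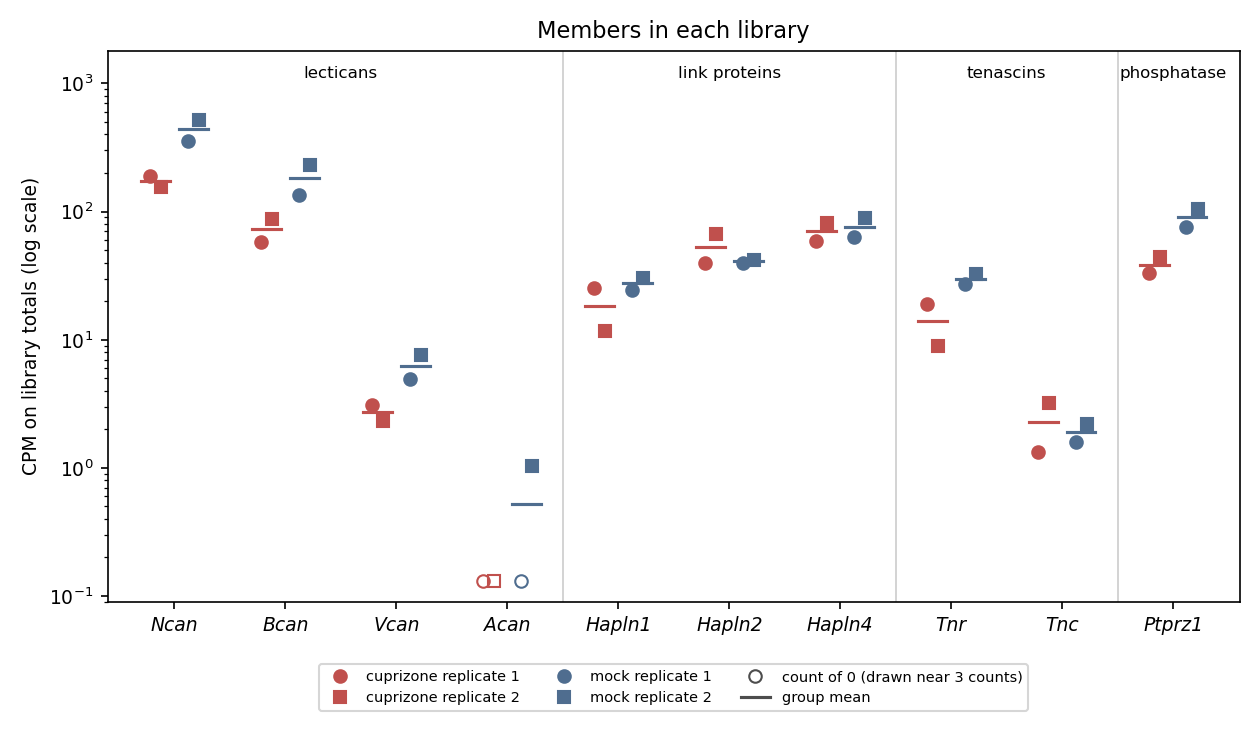
CPM on library totals, on a log axis, of the 10 members in each cuprizone and mock library, with bars at the group means. Ncan, Bcan, Vcan, Tnr and Ptprz1 are the 5 members whose cuprizone points both lie below both mock points, and open symbols mark a count of 0, seen for Acan in 3 libraries.

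Ncan encodes neurocan, a secreted lectican of the young and the injured brain, and was the most abundant member in every library. It stood at 189 and 156 CPM in cuprizone libraries, against 356 and 520.1 CPM in mock libraries. The higher cuprizone library was thus well under the lower mock library. The log2 fold was -1.41 (SE 0.22, 95% interval -1.95 to -0.88), with an unadjusted p of 0.000543 and an adjusted p of 0.122 in the edgeR fit over all genes. Of the 12 alternative fits, 3 put Ncan under an adjusted p of 0.05, and its adjusted p ran from 1.3e-08 with DESeq2 to 0.368 without mock replicate 2.

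Bcan encodes brevican, the lectican of mature brain, which astrocytes and oligodendrocyte precursors make. Its levels were 57.7 and 87.8 CPM in cuprizone libraries and 134 and 231 CPM in mock libraries. The groups did not overlap, although the mock libraries differed by more than the cuprizone libraries. The log2 fold was -1.39 (SE 0.33, 95% interval -2.18 to -0.61; edgeR unadjusted p = 0.00461, adjusted p = 0.197). Over the alternatives the adjusted p ran from 0.000124 with DESeq2 to 0.48. Leaving out 1 library at a time put the fold between -1.74 and -0.93.

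Vcan, for versican, is a large lectican with several splice forms, made in white matter chiefly by cells of the oligodendrocyte lineage. It was rare: cuprizone libraries held 68 and 55 counts (3.11 and 2.31 CPM), and mock libraries 110 and 161 counts (4.98 and 7.59 CPM). The groups did not overlap, but the interval of the log2 fold of -1.28 (SE 0.59) reached from -2.70 to 0.14 (edgeR unadjusted p = 0.0702, adjusted p = 0.442). Acan (7:79053483 to 79115099, plus strand), for aggrecan, the main lectican of perineuronal nets, had 0 counts in both cuprizone libraries and 0 and 22 counts in the mock libraries. It did not pass the filter on low counts and was not tested, and a count of 0 allows up to 0.126 to 0.137 CPM in the cuprizone libraries.

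The 4 lecticans summed to 248 ± 2.76 CPM in cuprizone libraries and 627 ± 187 CPM in mock libraries (SD, n = 2 each), a ratio of means of 0.395. The mix within that sum differed by less than its spread between libraries. Ncan's share of the lectican sum was 69.5% ± 8.68 under cuprizone, against 70.2% ± 2.42 under mock, and Bcan's was 29.4% ± 8.90 under cuprizone, against 28.7% ± 2.32 under mock (SD, n = 2 each). Astrocyte markers summed to 0.646 times the mock mean in the cuprizone libraries, a sum led by Aldoc, Slc1a2 and Slc1a3. Of the 12 markers 6 were lower in both cuprizone libraries, beside 18.9% of all tested genes. The other 6 overlapped, among them Aldh1l1 at 0.976 and Sox9 at 1.17 times the mock mean. Gfap, whose promoter drives the Cre, stood at 384.5 and 451 CPM in cuprizone libraries and 963 and 870.4 CPM in mock libraries (log2 fold -1.20, SE 0.15, edgeR adjusted p = 0.0838). For each 100 CPM of astrocyte markers there were 4.44 and 3.98 CPM of lecticans in cuprizone libraries and 5.30 and 8.48 CPM in mock libraries. By this measure link proteins went the other way, with 2.21 and 2.58 CPM in cuprizone libraries and 1.37 and 1.81 CPM in mock libraries. Tenascins overlapped (0.362 and 0.197 against 0.307 and 0.391 CPM), and Ptprz1 was lower (0.584 and 0.713 against 0.818 and 1.17 CPM). The link protein sum itself stood at 0.981 times the mock mean, beside 0.646 times for the marker sum that divides it. Among precursor markers, Pdgfra stood at 14.3 and 20.2 CPM in cuprizone libraries and 39.9 and 35.9 CPM in mock libraries, and Sox10, shared by the whole lineage, at 60.8 and 58.9 CPM in cuprizone libraries and 34.4 and 42.8 CPM in mock libraries. Both were picked after their values were seen. Of the 10 precursor markers, 4 were lower in both cuprizone libraries (Pdgfra, Cspg4, Gpr17 and Matn4), beside 18.9% of all tested genes. Another 3 were higher in both (Neu4, Sox10 and Olig2), beside 25.7%. Which cells carried the lectican difference was not tested.

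Ptprz1 (6:22875502 to 23052916, plus strand), the phosphatase, had 32.9 and 44.1 CPM in cuprizone libraries and 76.4 and 105 CPM in mock libraries. Again both cuprizone libraries were below both mock libraries. The log2 fold was -1.30 (SE 0.26, 95% interval -1.93 to -0.67), with an unadjusted p of 0.00207 and an adjusted p of 0.167 by edgeR. That adjusted p ran from 0.000348 with DESeq2 to 0.447, and the fold stayed between -1.54 and -1.03 with any 1 library left out.

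**Figure D2:**
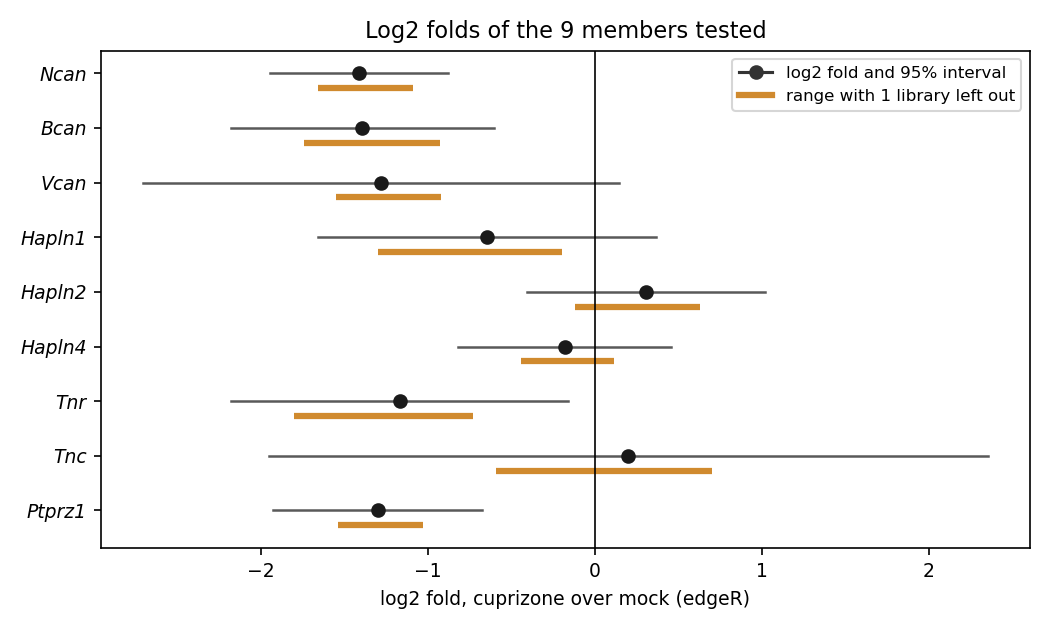
Log2 folds, cuprizone over mock, of the 9 tested members in the edgeR fit (points) with 95% intervals (grey lines), and the range of the fold when 1 of the 4 libraries is left out (orange bars). The orange bars of Ncan, Bcan, Vcan, Hapln1, Tnr and Ptprz1 stay below 0 and those of Hapln2, Hapln4 and Tnc cross it.

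To show the regulatory sequence of the members that differed most by p, the promoters of Ncan, Bcan and Ptprz1 are given with that of Hapln2, whose gene lies next to Bcan but whose fold was positive. They come from RefSeq on GRCm38.p6, from 250 bases before to 50 bases after the RefSeq start, 5′ to 3′ on the gene's strand. Entries matched 9 of the 10 members. Starts can differ between RefSeq and GENCODE. Capitals mark matches, on either strand, to the 5 motifs spelled out after the sequences, some of which overlap.
Ncan, minus strand, chr8:70120795-70121094:
Ncan: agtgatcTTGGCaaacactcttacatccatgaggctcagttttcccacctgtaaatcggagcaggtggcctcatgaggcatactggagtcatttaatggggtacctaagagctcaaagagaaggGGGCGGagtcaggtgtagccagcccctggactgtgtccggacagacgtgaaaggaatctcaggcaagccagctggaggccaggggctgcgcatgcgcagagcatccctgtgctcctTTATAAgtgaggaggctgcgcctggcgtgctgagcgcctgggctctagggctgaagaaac
Bcan, minus strand, chr3:88000307-88000606:
Bcan: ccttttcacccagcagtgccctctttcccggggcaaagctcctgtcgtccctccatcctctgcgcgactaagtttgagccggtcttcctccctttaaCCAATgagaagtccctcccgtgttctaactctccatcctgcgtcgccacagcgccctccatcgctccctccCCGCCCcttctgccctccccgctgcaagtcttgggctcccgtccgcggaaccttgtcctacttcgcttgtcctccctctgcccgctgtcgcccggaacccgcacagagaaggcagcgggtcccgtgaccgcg
Ptprz1, plus strand, chr6:22875252-22875551:
Ptprz1: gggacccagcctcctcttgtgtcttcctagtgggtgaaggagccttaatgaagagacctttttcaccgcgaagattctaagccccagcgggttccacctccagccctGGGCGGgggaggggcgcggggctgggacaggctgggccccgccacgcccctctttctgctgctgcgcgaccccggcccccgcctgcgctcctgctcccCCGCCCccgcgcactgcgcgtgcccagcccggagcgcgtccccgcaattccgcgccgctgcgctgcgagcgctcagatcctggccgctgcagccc
Hapln2, minus strand, chr3:88027462-88027761:
Hapln2: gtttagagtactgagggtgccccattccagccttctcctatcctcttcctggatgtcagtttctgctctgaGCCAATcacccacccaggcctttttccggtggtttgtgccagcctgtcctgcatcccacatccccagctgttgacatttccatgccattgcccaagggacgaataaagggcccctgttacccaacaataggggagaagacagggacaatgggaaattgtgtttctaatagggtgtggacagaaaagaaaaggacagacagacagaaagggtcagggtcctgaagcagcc

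The GC box, searched as GGGCGG, was found in the promoters of Ncan, Bcan and Ptprz1 and not in that of Hapln2, and 35.9% of 27025 promoters of that length hold it. Over all 9 members with an entry 6 held it, Tnc among them, and Tnr, Hapln1 and Hapln2 did not. The core of the TATA box was searched as TATAA and is held by 25.5% of all promoters. Among the promoters shown it matched that of Ncan alone. The CCAAT box, held by 37.9% of all promoters, matched those of Bcan and Hapln2, and of Vcan and Acan among those not shown. The half-site of the NFI factors was searched as TTGGC and is held by 47.0% of all promoters. It matched those of Ncan and Hapln2, and of Acan among those not shown. In Hapln2 it overlaps the CCAAT box on the opposite strand. The AP-1 motif, searched as TGANTCA and held by 7.93% of all promoters, had no match in the 9 members with an entry. GC content was 56.7% for Ncan, 64.0% for Bcan, 71.7% for Ptprz1 and 52.0% for Hapln2. These are matches of letters and no measure of binding.

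All 3 link proteins overlapped between the groups in CPM on library totals, though Hapln1 did not with TMM-scaled CPM. Hapln4, which neurons place in nets and at nodes together with brevican, stood at 59.4 and 81.7 CPM in cuprizone libraries and 63.2 and 89.5 CPM in mock libraries. Its log2 fold was -0.18 (SE 0.26, 95% interval -0.82 to 0.45; edgeR adjusted p = 0.872). The groups overlapped, and the 2 libraries of each group differed by more than the group means did. Hapln2, also called Bral1, is made by oligodendrocytes and holds the matrix at nodes of Ranvier. It stood at 39.9 and 66.4 CPM in cuprizone libraries and 39.9 and 42.2 CPM in mock libraries, so cuprizone replicate 2 alone stood apart. Its log2 fold was 0.31 (SE 0.30, 95% interval -0.41 to 1.02; edgeR adjusted p = 0.761), and -0.12 without that library. Hapln1, the cartilage link protein, which neurons with perineuronal nets make, stood at 25.3 and 11.7 CPM in cuprizone libraries and 24.5 and 30.6 CPM in mock libraries. Here cuprizone replicate 2 was the low one, and the log2 fold of -0.65 (SE 0.42, 95% interval -1.66 to 0.37; edgeR adjusted p = 0.604) became -0.20 without it and -1.30 without cuprizone replicate 1. The intervals of these folds still allow changes in either direction.

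Cuprizone replicate 2 also stood apart in the sum of 6 markers of parvalbumin neurons, the cells that nets typically surround, though not in each marker. Those 6 genes summed to 168 and 405 CPM in cuprizone libraries and 112 and 115 CPM in mock libraries, and Pvalb itself stood at 24.3 and 102 CPM in cuprizone libraries and 15.2 and 17.7 CPM in mock libraries. Of the 6 genes, 4 were higher in both cuprizone libraries, beside 25.7% of all tested genes, and 2 overlapped. Kcnc2 was lowest in cuprizone replicate 2, with 29.3 and 19.7 CPM in cuprizone libraries and 27.5 and 29.7 CPM in mock libraries. Lhx6 had 65 and 0 counts in cuprizone libraries and 0 and 10 in mock libraries. EdgeR called 0 of the 6 genes, with 4 higher at an unadjusted p under 0.05, beside 5.73% of all tested genes. Their part in the values of Hapln1, Hapln2 and Hapln4 was not tested.

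Each of the 4 lectican genes has a link protein gene beside it, with no other protein-coding gene between them in GENCODE M21 on GRCm38. Ncan (8:70093085 to 70120873, minus strand) and Hapln4 (8:70083457 to 70090862, plus strand) have their ends 2.22 kb apart, Bcan (3:87987531 to 88000230) and Hapln2 (3:88021750 to 88027583), both on the minus strand, lie 21.5 kb apart, and Vcan (13:89655312 to 89742509, minus strand) and Hapln1 (13:89539796 to 89611652, plus strand) 43.7 kb apart. For each count of Bcan there were 0.691 and 0.756 counts of Hapln2 in cuprizone libraries, against 0.297 and 0.183 in mock libraries. For each count of Ncan there were 0.314 and 0.524 counts of Hapln4 in cuprizone libraries, against 0.178 and 0.172 in mock libraries. Hapln1 counts per Vcan count were 8.13 and 5.05 in cuprizone libraries and 4.92 and 4.02 in mock libraries. The nearest cuprizone and mock ratios of that last pair, 5.05 and 4.92, were close, and the cuprizone one rests on 55 Vcan counts. The fold of the link protein exceeded that of its lectican by 1.70 on the log2 scale for Bcan and Hapln2, 1.23 for Ncan and Hapln4, and 0.64 for Vcan and Hapln1. These differences were not tested, and a ratio within a library does not depend on how libraries are scaled. Acan and Hapln3 are the fourth pair, with ends 2 bases apart on opposite strands. Hapln3, which is not among the 10, had 40 and 79 counts in cuprizone libraries, against 0 and 51 in mock libraries (log2 fold 1.03, SE 1.74, edgeR adjusted p = 0.899). Tnn, tenascin-N, had 0 and 84 counts in cuprizone libraries, against 30 and 0 in mock libraries. With Tnxb they make a list of 3 other family genes, of which 0 had an unadjusted p under 0.05 or were called, with a median log2 fold of 1.03 that turned to -1.23 without cuprizone replicate 2 and was 0.03 without mock replicate 1. The strand setting of the counting is not given in the sources used here, so reads near such ends may be shared.

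**Figure D3:**
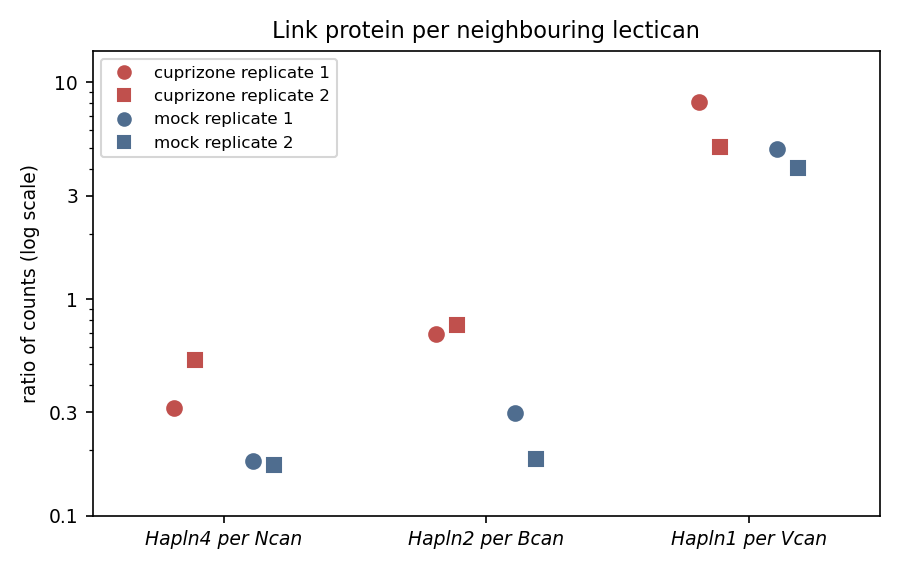
Counts of a link protein gene divided by counts of the lectican gene next to it, on a log axis, in each cuprizone and mock library. The gap between the nearest cuprizone and mock points is widest for Hapln2 per Bcan (0.691 and 0.297) and narrow for Hapln1 per Vcan (5.05 and 4.92).

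Of the tenascins, Tnr had lower values in both cuprizone libraries and Tnc did not. Tnr (1:159523769 to 159931729, plus strand) encodes tenascin-R, the crosslinker of lecticans made by oligodendrocytes, their precursors and some neurons, and stood at 19.1 and 8.94 CPM in cuprizone libraries and 27.1 and 32.8 CPM in mock libraries. Cuprizone replicate 2 was the lowest library. The log2 fold was -1.17 (SE 0.42, 95% interval -2.18 to -0.16; edgeR unadjusted p = 0.0295, adjusted p = 0.326). It was -0.73 with cuprizone replicate 2 left out and -1.81 with cuprizone replicate 1 left out. Tnc (4:63959785 to 64047015, minus strand), for tenascin-C, which is known to rise in reactive astrocytes after injury, was rare: cuprizone libraries held 29 and 77 counts (1.33 and 3.23 CPM), and mock libraries 35 and 47 counts (1.58 and 2.22 CPM). Its groups overlapped, and the log2 fold of 0.20 (SE 0.89, 95% interval -1.95 to 2.35; edgeR adjusted p = 0.972) turned to -0.59 without cuprizone replicate 2. Of the tenascin counts, Tnc made up 6.52% and 26.6% in cuprizone libraries and 5.53% and 6.33% in mock libraries. The interval of the Tnc fold allows a change in either direction.

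Levels can be set side by side between genes per kilobase of exon. In cuprizone libraries Ncan (24.0 ± 3.26 CPM per kb), Hapln2 (22.4 ± 7.90), Hapln4 (18.0 ± 4.02) and Bcan (17.9 ± 5.23) lay within about their spreads of each other, followed by Hapln1 (3.13 ± 1.64), Ptprz1 (2.70 ± 0.553) and Tnr (1.09 ± 0.556; SD, n = 2 for each value). In mock libraries Ncan (60.9 ± 16.1 CPM per kb) and Bcan (44.9 ± 16.8) led, within their spread of each other. Hapln4 (19.5 ± 4.74) and Hapln2 (17.3 ± 0.674) came next, also within their spread, then Ptprz1 (6.36 ± 1.42), Hapln1 (4.66 ± 0.729) and Tnr (2.33 ± 0.317; SD, n = 2 for each value). Vcan, Tnc and Acan were the lowest in both groups, with means of at most 0.293 CPM per kb (Tnc) in cuprizone and 0.434 CPM per kb (Vcan) in mock libraries. The length is that of all annotated exons of a gene joined, which overstates the transcript of genes with many splice forms. The summed link proteins stood at 125 and 160 CPM in cuprizone libraries and 128 and 162 CPM in mock libraries, a ratio of means of 0.981 beside the 0.395 of the lecticans.

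The other genes of the pathway were described from lists drawn up by role. Over all 15816 tested genes, edgeR called 13, limma-voom 47 and DESeq2 720. EdgeR's unadjusted p was under 0.05 with lower values for 7.04% and with higher values for 5.73% of them. Of 15 genes that build the linkage sugar and the chondroitin chain, edgeR called 0 over all genes, 3 had an unadjusted p under 0.05 with lower values (0 without mock replicate 2) and 0 with higher, and the median log2 fold was -0.41. B3galt6 and Fam20b, which act on the linkage sugars, had log2 folds of -1.11 (SE 0.29) and -0.76 (SE 0.31), and Csgalnact2, which starts the chain, -1.42 (SE 0.50). Chpf, a chain polymerising factor, stood at -0.28 (SE 0.28) and Ugdh, which supplies the sugar precursor, at 0.37 (SE 0.32). Among 14 tested sulfation and epimerisation genes the median was -0.14, with 0 called by edgeR, 1 called by DESeq2 (Chst11) and 3 lower by unadjusted p. That median was 0.07 without mock replicate 1 and -0.39 without mock replicate 2. Chst11, a chondroitin sulfotransferase, had 5.91 and 9.11 CPM in cuprizone libraries and 17.9 and 24.9 CPM in mock libraries (log2 fold -1.58, SE 0.41, edgeR adjusted p = 0.231). Dsel, an epimerase that makes dermatan sulfate, had -1.54 (SE 0.50) and the sulfotransferase Chst15 -0.74 (SE 0.27). The sulfotransferase Ust stood at -0.25 (SE 0.27), and Papss1, which makes the sulfate donor and is the most abundant of the list, at 0.20 (SE 0.17).

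Surface partners of the matrix had lower values in most cases. Of 15 tested genes in the list of receptors and partners, 13 had negative folds, beside 49.9% of all tested genes. The median log2 fold was -0.88. By edgeR's unadjusted p under 0.05, 9 were lower and 0 higher, beside 7.04% and 5.73% of all tested genes. In 11 both cuprizone libraries lay below both mock libraries, beside 18.9%. EdgeR called 0 of the list, limma-voom 1 (Cntn1) and DESeq2 6, where they called 13, 47 and 720 of all 15816 tested genes. The count of 9 was 6 without mock replicate 2 and 7 without cuprizone replicate 2, where 3.59% and 7.15% of all tested genes were lower by that rule. Cntn1, contactin-1, a ligand of Ptprz1 and of tenascin-R on axons and glia, stood at 215 and 216 CPM in cuprizone libraries and 470 and 561 CPM in mock libraries (log2 fold -1.33, SE 0.15, edgeR adjusted p = 0.0703). The cell adhesion molecules Nrcam, Nfasc and Ncam1 were lower in both cuprizone libraries too, with log2 folds of -1.08 (SE 0.18) for Nrcam and -1.09 (SE 0.20) for Ncam1. Nfasc stood at 78.0 and 86.3 CPM in cuprizone libraries and 142 and 172 CPM in mock libraries. Ptprs and Ptprf, receptors for chondroitin sulfate that halt axons, had -0.82 (SE 0.25) and -0.88 (SE 0.31), and were picked for their role after their values were seen. Of the 3 ligands of Ptprz1, Ptn, the growth factor pleiotrophin, had 514 and 425 CPM in cuprizone libraries and 827 and 820 CPM in mock libraries, which gives a log2 fold of -0.88 (SE 0.14, edgeR adjusted p = 0.126), and Il34 had -1.24 (SE 0.33). EdgeR called 0 of the 3 and DESeq2 2 (Ptn and Il34), among its 720 calls over all genes. The third, Mdk, midkine, was at -0.33 (SE 0.28).

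**Figure D4:**
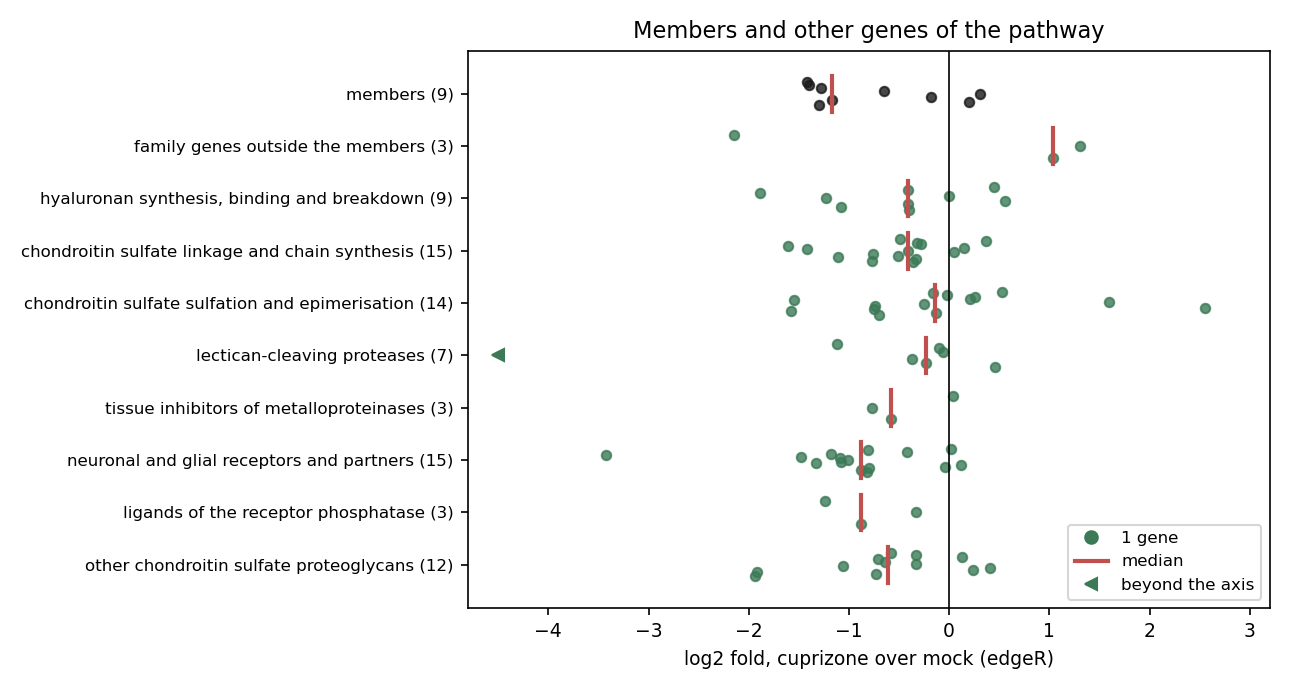
Log2 folds, cuprizone over mock, of each tested gene (points) in the members and in the lists of the pathway, with the list median as a red bar and the number of tested genes in brackets. The medians of the members (-1.17) and of the receptors and partners (-0.88) lie left of that of the sulfation genes (-0.14), and the arrow marks Adamts8, whose fitted fold lies beyond the axis.

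Other chondroitin sulfate proteoglycans had a median log2 fold of -0.61 over 12 tested genes, with 0 called by edgeR. By its unadjusted p, 4 were lower and 0 higher, beside 7.04% and 5.73% of all tested genes. DESeq2 called 3 (Cspg5, Aplp2 and Spock2), among its 720 calls over all genes, and limma-voom 1 (Aplp2), among its 47. The median was -0.32 without mock replicate 1 and -0.58 without mock replicate 2, each over 13 tested genes in place of 12. Cspg5, or neuroglycan C, a membrane proteoglycan of neurons and glia, stood at 156 and 101 CPM in cuprizone libraries and 191 and 217 CPM in mock libraries, which gives a log2 fold of -0.73 (SE 0.23). Aplp2, a relative of the amyloid precursor protein, had -1.06 (SE 0.16), the testicans Spock1 and Spock2 had -0.64 (SE 0.25) and -0.71 (SE 0.18), and Tmeff2, a membrane protein, -0.33 (SE 0.14). Among lectican-cleaving proteases, Adamts4, an aggrecanase that cuts brevican, stood at 17.0 and 25.6 CPM in cuprizone libraries and 16.1 and 31.6 CPM in mock libraries, and Adamts1 at 4.95 and 17.0 CPM in cuprizone libraries and 6.69 and 8.63 CPM in mock libraries, both with overlapping groups. Adamts8 had 0 counts in both cuprizone libraries and 1.81 and 2.74 CPM in mock libraries, so its fitted fold is no bound. Of 7 tested proteases, 1 was lower by edgeR's unadjusted p, beside 7.04% of all tested genes. EdgeR called 0 and DESeq2 called 1 (Adamts8), and the median was -0.23. The filter on low counts was rerun with a library left out, so these medians are not over the same genes. The protease median was -1.40 without cuprizone replicate 2 and 0.04 without cuprizone replicate 1, each over 9 tested genes. Among inhibitors of such proteases, Timp3, which binds the matrix, had 53.2 and 82.8 CPM in cuprizone libraries and 107 and 115 CPM in mock libraries (log2 fold -0.77, SE 0.25), Timp2 had -0.58 (SE 0.20) and Timp4 0.04 (SE 0.23), with 0 of 3 tested called by edgeR or DESeq2 and 2 lower by unadjusted p, a count that was 0 without mock replicate 2. Timp1 had 0 counts in every library.

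Hyaluronan itself is made by 3 synthases, all rare here. Has1 stood at 2.70 and 1.47 CPM in cuprizone libraries and 2.17 and 3.06 CPM in mock libraries, and Has2 and Has3 stayed at or under 0.236 CPM in every library. These 3 were picked for their role after their values were seen. Of 9 tested genes of hyaluronan synthesis, binding and breakdown, edgeR called 0 and 1 was lower by unadjusted p, beside 7.04% of all tested genes. Their median log2 fold was -0.41. Leaving out cuprizone replicate 1 made that median -1.20, and leaving out either cuprizone replicate 2 or mock replicate 2 made it -0.03. The 1 lower gene, the hyaluronidase Hyal2, had 7.97 and 3.90 CPM in cuprizone libraries and 11.9 and 14.5 CPM in mock libraries (log2 fold -1.23, SE 0.49). Tnfaip6, a hyaluronan-binding protein of inflammation, had higher values in both cuprizone libraries, 48.5 and 46.1 CPM, against 29.2 and 37.0 CPM in mock libraries (log2 fold 0.45, SE 0.24, edgeR adjusted p = 0.514).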

How the data were processed

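RNA bound to HA-tagged ribosomes of 2 cuprizone and 2 mock libraries was measured. The authors deposited raw counts per Ensembl gene, 1 table per library, whose values are whole numbers. Per the submitters' processing notes FastQC 0.11.9, STAR 2.5.4b, featureCounts 1.6.0 and the build GRCm38 (mm10) were used. Annotation, strand setting and treatment of multi-mapping reads: not given in the sources used here. Symbols and places come from GENCODE M21 on GRCm38, matched for 55144 ids.

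The main test on the counts was that of edgeR 4.0.16, run in R 4.3.3 (low counts removed by filterByExpr, TMM, robust glmQLFit with the package's default dispersion estimate, glmQLFTest, 2-sided, Benjamini-Hochberg adjustment over 15816 genes, threshold 0.05), without a block. Each SE was obtained by dividing the absolute log2 fold by the square root of F. CPM were scaled to library totals. The scripts were tested on simulated data. Alternatives were DESeq2 1.42.0, limma-voom (limma 3.58.1), other scalings, filters and dispersion estimates, a replicate block and leaving out each library. With a library left out the filter was run again, so the tested genes of a list could change. Limits from a count of 0 cover counting error only. The members and lists were chosen with earlier results of these data known. All members were named; of each list, its 2 most abundant genes and up to 4 with an unadjusted p under 0.05 were named, with additions stated.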

Additional observations from a re-analysis of the deposited data

How the results depend on the processing

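Over 12 alternative fits the folds of Ncan, Bcan, Vcan, Hapln1, Tnr and Ptprz1 kept their sign. With 1 library left out, the fold of Hapln2 ran from -0.12 to 0.63, that of Hapln4 from -0.44 to 0.11 and that of Tnc from -0.59 to 0.70. The count of called members, 0 with edgeR, was 3 with DESeq2 and 3 without a filter on low counts (Ncan, Bcan and Ptprz1 each time), 1 (Ncan) at a mean CPM of at least 1, and 0 in every other fit. The cause was not tested. The count of called genes over the whole table, 13, was 720 with DESeq2, 191 without a filter, 68 at a mean CPM of at least 1, 51 with the bias-adjusted quasi-likelihood and 47 with limma-voom, and ran from 5 to 123 with 1 library left out. The members' median log2 fold ran from -1.30 to -0.73 with 1 library left out (-0.73 without cuprizone replicate 2), and the members with an unadjusted p under 0.05 numbered 3 to 6. Scaling by library totals moved the median of all tested genes to 0.07 and the members' median to -1.10. The replicate block called 10 genes and 0 members. The labels do not say that a replicate number marks a shared animal, litter or day, so the numbers were not taken as pairs. As a check, libraries with the same number did not deviate together (r = -0.012 across genes). With TMM-scaled CPM 6 members in place of 5, Hapln1 added, lay below mock in both cuprizone libraries. The TMM factors, 1.031 and 1.018 for cuprizone and 0.974 and 0.978 for mock libraries, lower every cuprizone value relative to mock. The share of all tested genes below mock under that scaling was not counted. Genes lower at an unadjusted p under 0.05 in the list of chain synthesis, 3 in the report, numbered 2 when scaled by library totals and 0 without mock replicate 2. A group left with 1 library was assumed to vary like the other. Vcan and Tnc had at most 161 counts in a library and the widest intervals of the tested members.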

Other observations

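Genes whose levels over the 4 libraries were nearest to those of the 2 most abundant members were sought among 9432 tested genes with a mean of at least 10 CPM, by Euclidean distance of log2(CPM + 1) centred on each gene's mean. For Ncan they were Gpr107 (distance 0.0989), Cx3cl1 (0.121) and Fkbp9 (0.133). Cx3cl1, the membrane-bound chemokine fractalkine, stood at 313 and 246 CPM in cuprizone libraries and 532 and 779 CPM in mock libraries. For Bcan they were Kcnj10 (0.168), H2-D1 (0.198) and Chst11 (0.258). Kcnj10, the potassium channel Kir4.1 of astrocytes and oligodendrocytes, stood at 28.5 and 49.6 CPM in cuprizone libraries and 67.5 and 112 CPM in mock libraries. With 4 libraries many genes share such a pattern.

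Exon length and log2 fold had a Spearman rho of -0.400 over the 9 tested members, which share libraries and were not chosen by length, and of 0.142 over 15805 tested genes.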
